A study of Mus musculus with 35 samples.

Results

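Macrophages are the main immune cells of the testis, and this account follows 10 of their genes through mouse testes that differed in Akt1 genotype and in exposure to the goitrogen propylthiouracil (PTU), which keeps the thyroid from making its hormones. The genes are the growth factor Csf1 and its receptor Csf1r, the mannose receptor Mrc1, the Fc receptor Fcgr3, the surface receptor Adgre1, the lysosomal glycoprotein Cd68, the lysozyme Lyz2 and the complement chains C1qa, C1qb and C1qc. They were taken by name: every probe set annotated to 1 of these symbols, in each of the study's tables. That gave 10 probe sets of 35556 on the arrays used at postnatal day 15 and 17 of 45101 on the arrays used at day 25, and none of them is annotated to a second symbol.

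Testes of male C57BL6 mice were collected at day 15 or day 25, and their RNA was hybridised to Affymetrix arrays, of 1 design at day 15 and another at day 25. At each age the groups were PTU-exposed and unexposed mice of 3 genotypes: Akt1 homozygous (Akt1-/-), Akt1 heterozygous (Akt1+/-) and Akt1 wild type (Akt1+/+). Each group has 3 arrays, 1 mouse each, except the exposed homozygous mice at day 25, which have 2 because the authors left out a chip of low quality. The labels do not say how the Akt1 allele was made, nor the dose, route or days of PTU. The 2 ages used different array designs, so each age was analysed on its own. Values are log2 intensities, where a difference of 1 is a doubling, and they compare samples for a given gene but not one gene with another.

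Testicular macrophages sit in the interstitium among the Leydig cells and around the seminiferous tubules. They depend on CSF1, which binds the receptor tyrosine kinase CSF1R and drives macrophage survival and growth. They take up debris through receptors such as MRC1 and Fc receptors and digest it in lysosomes, where CD68 resides. The 3 C1q chains assemble into the recognition unit of the classical complement pathway, and macrophages are a main source of it in tissues. All 10 genes had signal above the filter on dim probe sets in every array: the lowest member value was 6.19 at day 15, against a filter at 5.56, and 6.10 at day 25, against a filter at 4.76. In RNA of whole testis, fewer macrophages and less RNA of these genes per macrophage cannot be told apart.

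Promoters are described first, because macrophage genes are classically bound by ETS factors such as PU.1. RefSeq's table on GRCm38.p6 holds promoters for 7 of the 10 genes (8 windows), and each window searched was the 250 bases before the gene's annotated start. The 7-letter ETS core AGGAAGT was looked for on both strands. It was present for Mrc1, C1qb, C1qc and Lyz2, 4 of the 7 genes, against 7.69% of all 32851 windows of this length. It was absent for Cd68, Csf1 and Fcgr3, of which Cd68 and Fcgr3 were also lower with PTU at day 15, averaged over genotypes. The 4 promoters below are shown because they hold the match. In each sequence below, written 5′ to 3′ on the strand of the gene, capitals mark the match, which lies on the opposite strand and so reads ACTTCCT. The windows are chr2:14229164-14229413 on the plus strand for Mrc1, chr4:136886201-136886450 on the minus strand for C1qb, chr4:136892915-136893164 on the minus strand for C1qc and chr10:117282273-117282522 on the minus strand for Lyz2.
Mrc1: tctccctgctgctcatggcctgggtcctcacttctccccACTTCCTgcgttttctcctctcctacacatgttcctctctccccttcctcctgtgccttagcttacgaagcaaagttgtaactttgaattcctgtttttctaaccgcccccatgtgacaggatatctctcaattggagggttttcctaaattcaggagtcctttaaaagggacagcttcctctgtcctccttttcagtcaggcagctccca
C1qb: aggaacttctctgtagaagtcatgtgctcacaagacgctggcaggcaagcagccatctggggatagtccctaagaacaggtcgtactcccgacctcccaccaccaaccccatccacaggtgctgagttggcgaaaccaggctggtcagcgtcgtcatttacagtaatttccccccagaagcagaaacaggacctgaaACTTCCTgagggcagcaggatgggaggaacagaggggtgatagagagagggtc
C1qc: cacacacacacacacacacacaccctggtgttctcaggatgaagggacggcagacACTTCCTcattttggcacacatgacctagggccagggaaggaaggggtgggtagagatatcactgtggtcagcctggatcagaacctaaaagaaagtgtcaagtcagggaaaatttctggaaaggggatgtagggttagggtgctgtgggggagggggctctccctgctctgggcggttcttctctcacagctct
Lyz2: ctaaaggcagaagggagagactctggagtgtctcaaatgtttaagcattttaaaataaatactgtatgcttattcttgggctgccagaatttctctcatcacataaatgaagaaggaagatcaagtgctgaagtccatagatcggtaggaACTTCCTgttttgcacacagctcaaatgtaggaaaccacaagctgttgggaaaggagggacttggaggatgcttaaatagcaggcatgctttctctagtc

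The match starts at position -211 from the gene start in Mrc1, -53 in C1qb, -195 in C1qc and -100 in Lyz2. Letters this short match often, and a match is a description of the sequence, not a site shown to be bound. The longer GAGGAAGT, which contains AGGAAGT, was found for C1qc alone, against 2.44% of all windows. The shorter GGAAGT, contained in both, was found for the same 4 genes (19.7% of all windows), and GAGGAA, which overlaps these motifs, for 5 genes, Cd68 and Fcgr3 among them (23.3%). The nuclear receptor half-site AGGTCA, which thyroid hormone receptors recognise, was present in the C1qc window alone of the 7 genes, against 14.0% of all windows. The E-box CACGTG was in none of the member windows and in 6.02% of all windows. C1qb, C1qc and C1qa are consecutive coding genes on chromosome 4, and Fcgr3 lies on chromosome 1 between Fcgr4 and Cfap126.

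Some properties of the arrays touch the results. At day 15 the 18 arrays fall into 2 sets by the level of probe sets without a gene name, 12 arrays in the first and 6 in the second. The second set holds no wild type array. At day 25 the 2 exposed homozygous arrays stood apart from the rest: their Spink8, an epididymal gene, was 12.8 and 12.9, against 5.74 to 10.1 in the other 15 arrays, and their mean over 8 pachytene spermatocyte markers was 10.3 and 11.9, against 12.7 to 13.1. Spink8 above 7 was also seen in 1 exposed homozygous and 2 unexposed wild type arrays at day 15, and in 1 exposed heterozygous and 1 exposed wild type array at day 25. The targeted gene, Akt1, had a level of 9.01 to 9.74 in 6 homozygous arrays, 8.83 to 9.96 in 6 heterozygous arrays and 9.34 to 10.1 in 6 wild type arrays at day 15. At day 25 it was 9.28 to 9.53 in 5 homozygous, 9.17 to 9.52 in 6 heterozygous and 9.38 to 9.55 in 6 wild type arrays. Its difference between homozygous and wild type mice, averaged over exposure, was -0.48 ± 0.15 at day 15 (limma adjusted p = 0.0283) and -0.06 ± 0.06 at day 25 (adjusted p = 0.477), and no label says which part of Akt1 the probes or the deletion cover, so this is no check of the genotype.

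At day 15 most of the macrophage genes were lower in PTU-exposed testes. Averaged over the 3 genotypes, 9 of the 10 genes were lower in exposed testes by limma at an adjusted p of 0.05, none was higher, and of the 16710 genes tested 8.09% were lower and 3.88% higher. The median difference of the 10 genes was -0.59 on the log2 scale, against 0.02 over all genes tested. Csf1, the ligand, was the 1 gene that did not pass, at -0.27 ± 0.10 (adjusted p = 0.0787). The fall was 1.30-fold for Adgre1 and 1.77-fold for Lyz2, and the other 7 lay between them. Of the 10 genes, Lyz2 and Mrc1 had the largest mean differences. The plot of day 15 levels gives every array.

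**Figure D1:**
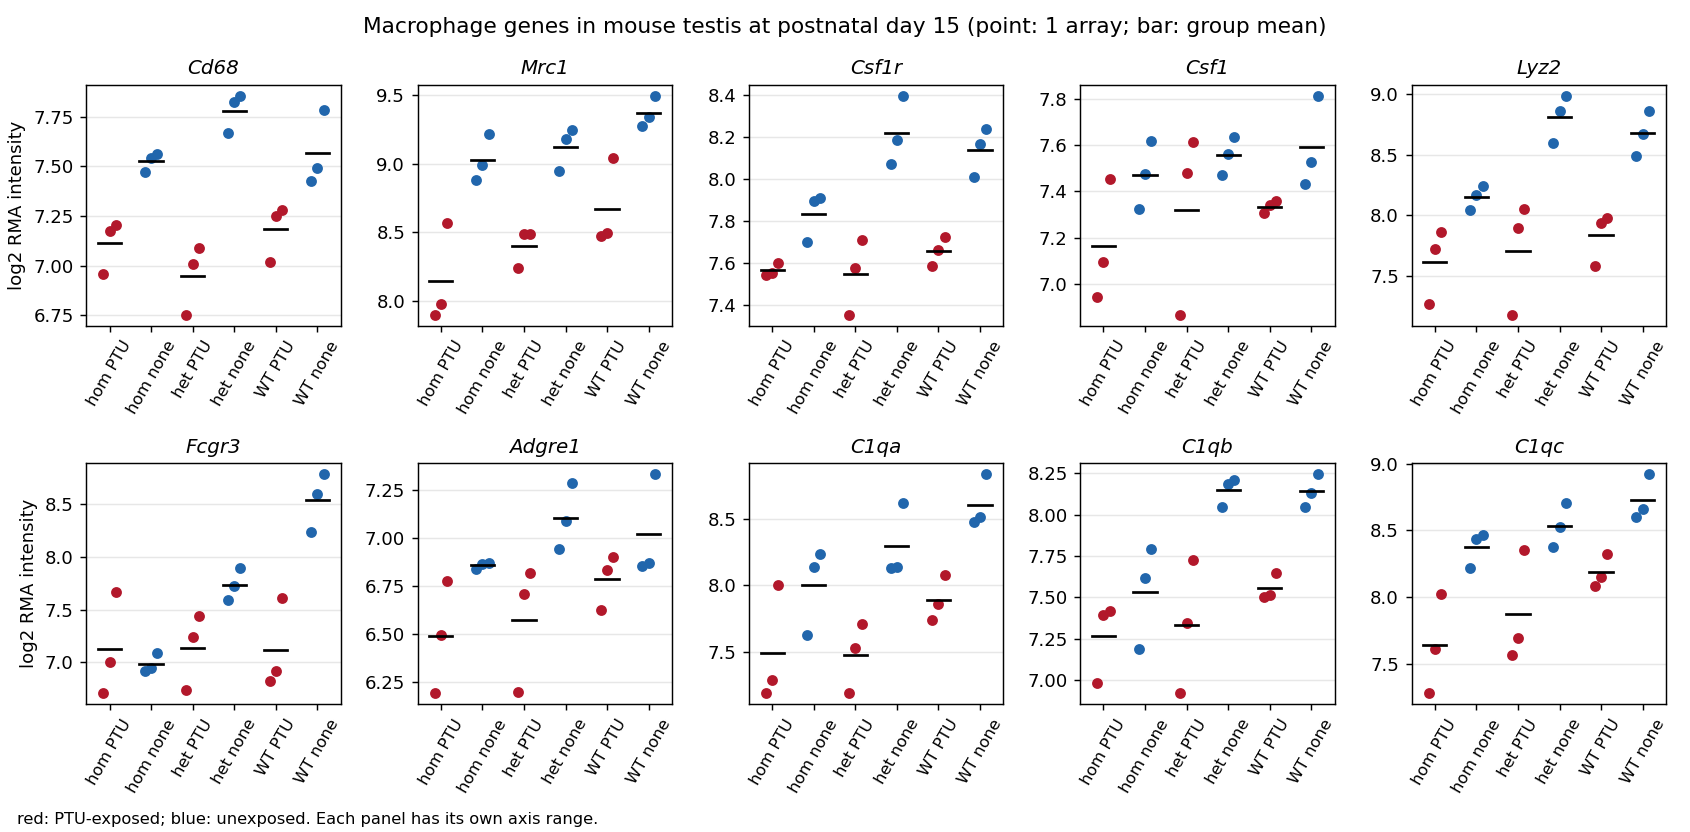
Log2 RMA intensity (y axis, own range in each panel) of the 10 macrophage genes at day 15 in the 6 groups of genotype and exposure (x axis: hom, Akt1 homozygous; het, heterozygous; WT, wild type; PTU, exposed; none, unexposed), with 1 point per array, red for exposed and blue for unexposed, and bars for group means. Every exposed array lies below every unexposed one for 9 genes in wild type, 9 in heterozygous and 6 in homozygous mice.

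Of the growth factor and its receptor, the receptor passed the test. Csf1r was 7.66, 7.58 and 7.72 in exposed wild type testes, against 8.01, 8.24 and 8.17 in unexposed ones. It was 7.35, 7.71 and 7.58 in exposed heterozygous testes, against 8.19, 8.40 and 8.07 in unexposed ones, and 7.60, 7.55 and 7.54 in exposed homozygous testes, against 7.70, 7.89 and 7.91 in unexposed ones. No exposed array reached the lowest unexposed array of its own genotype. The differences were -0.48 ± 0.11 in wild type (adjusted p = 0.00587), -0.67 ± 0.11 in heterozygous (adjusted p = 0.00708) and -0.27 ± 0.11 in homozygous mice (adjusted p = 0.147). Csf1 had differences of -0.26 ± 0.16, -0.24 ± 0.16 and -0.31 ± 0.16 in wild type, heterozygous and homozygous mice, none past the test. In exposed heterozygous mice Csf1 spread from 6.87 to 7.61, overlapping the unexposed range of 7.47 to 7.64.

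The mannose receptor Mrc1, which binds and internalises glycoproteins, fell in wild type and in homozygous mice. Its values were 9.04, 8.47 and 8.50 in exposed wild type testes, against 9.28, 9.50 and 9.34 in unexposed ones, and 8.57, 7.90 and 7.97 in exposed homozygous testes, against 8.88, 9.22 and 8.99 in unexposed ones. In heterozygous mice the exposed arrays read 8.24, 8.49 and 8.49, against 9.25, 9.18 and 8.95 in unexposed mice. The groups did not overlap in any genotype, and Mrc1 had its lowest mean in exposed homozygous testes. The difference was -0.70 ± 0.17 in wild type (adjusted p = 0.0107), -0.72 ± 0.17 in heterozygous (adjusted p = 0.0641, not past the threshold) and -0.88 ± 0.17 in homozygous mice (adjusted p = 0.00918). The call was lost under 3 of 16 alternatives in wild type and 5 of 16 in homozygous mice, with the sign kept.

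Adgre1, whose product is a widely used surface antigen of mouse macrophages, had a smaller difference. It passed when genotypes were averaged (-0.38 ± 0.10, adjusted p = 0.0184) but in no genotype alone, where it was -0.23 ± 0.17 in wild type, -0.53 ± 0.17 in heterozygous and -0.37 ± 0.17 in homozygous mice. Exposed arrays ranged from 6.19 to 6.90 and unexposed arrays from 6.84 to 7.33, so that only exposed wild type arrays overlapped the unexposed range of their own genotype.

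Both lysosomal products fell. Cd68 was 7.28, 7.02 and 7.25 in exposed wild type testes, against 7.43, 7.78 and 7.49 in unexposed ones. In heterozygous mice Cd68 read 6.75, 7.09 and 7.01 with PTU, against 7.82, 7.86 and 7.67 without it, and in homozygous mice 7.21, 7.17 and 6.96, against 7.56, 7.47 and 7.54. By the test Cd68 was lower in each genotype, narrowly in homozygous mice: -0.38 ± 0.12 in wild type (adjusted p = 0.0320), -0.83 ± 0.12 in heterozygous (adjusted p = 0.00484) and -0.41 ± 0.12 in homozygous mice (adjusted p = 0.0480). The homozygous call was lost under 13 of 16 alternatives (adjusted p from 0.0336 to 0.332), the wild type call under 5 of 16 and the heterozygous call under 2 of 16, always with the same sign. The heterozygous difference was larger than the wild type one by -0.45 ± 0.16, and the test of that difference gave an adjusted p of 0.371. Lyz2, the lysozyme of macrophages and neutrophils, was 7.98, 7.59 and 7.94 in exposed wild type testes, against 8.49, 8.86 and 8.67 in unexposed ones, a difference of -0.84 ± 0.20 (adjusted p = 0.00842). The Lyz2 difference was -1.10 ± 0.20 in heterozygous mice (adjusted p = 0.0140), with exposed values of 7.19, 8.05 and 7.90, against 8.98, 8.86 and 8.59. In homozygous mice it was -0.53 ± 0.20 (adjusted p = 0.121), with 7.73, 7.86 and 7.27, against 8.17, 8.25 and 8.04 in unexposed mice. The unexposed homozygous arrays were the lowest of the unexposed groups for Lyz2, and no exposed array reached the lowest unexposed array of its genotype. The neighbouring gene Lyz1 encodes a near-identical lysozyme, so probes may read both, and its own probe set differed by -0.26 ± 0.09 (adjusted p = 0.0836, averaged over genotypes).

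The 3 C1q chains all passed when genotypes were averaged: C1qa at -0.68 ± 0.12 (adjusted p = 0.00169), C1qb at -0.55 ± 0.10 (adjusted p = 0.00198) and C1qc at -0.65 ± 0.11 (adjusted p = 0.00116). C1qa was 8.08, 7.74 and 7.86 in exposed wild type testes, against 8.52, 8.84 and 8.48 in unexposed ones, and 7.19, 7.71 and 7.52 in exposed heterozygous testes, against 8.62, 8.14 and 8.13. In homozygous mice C1qa was 7.19 and 7.29 in 2 exposed arrays, against 8.14, 8.23 and 7.63 in unexposed ones, and here the groups overlapped, since the other exposed array lay above the lowest unexposed array. Within genotypes the chains did not all pass. C1qa and C1qb passed in wild type mice (adjusted p = 0.0295 and 0.0322), C1qb in heterozygous mice (adjusted p = 0.0428) and C1qc in homozygous mice (-0.73 ± 0.19, adjusted p = 0.0342, lost under 7 of 16 alternatives).

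By genotype, 7 of the 10 genes were lower with PTU in wild type mice, where 8.75% of all genes tested were lower, and 3 in homozygous mice (Cd68, Mrc1 and C1qc), where 4.37% were lower. In heterozygous mice 4 genes were lower (Cd68, Csf1r, Lyz2 and C1qb) against 0.377% of all genes. At an unadjusted p of 0.05 the counts were 8, 9 and 7 genes in wild type, heterozygous and homozygous mice, all lower. Every exposed array lay below every unexposed array of its genotype for 9 genes in wild type mice (18.7% of all genes do this), 9 in heterozygous (8.62%) and 6 in homozygous mice (11.4%). Leaving out 1 array at a time changed these counts: to between 2 and 6 in wild type (2 without exposed array 2, 3 without exposed array 3, and 4 without unexposed array 2 or 3), to between 0 and 5 in heterozygous (0 without exposed array 1, 2 without unexposed array 1 or 2) and to between 0 and 4 in homozygous mice (0 without exposed array 2 or unexposed array 2, 1 without exposed array 3 or unexposed array 1). The count averaged over genotypes stayed at 9 or 10. Without the 3 arrays with Spink8 above 7 it was 8, while the wild type count was 1 and the homozygous count 0.

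**Figure D2:**
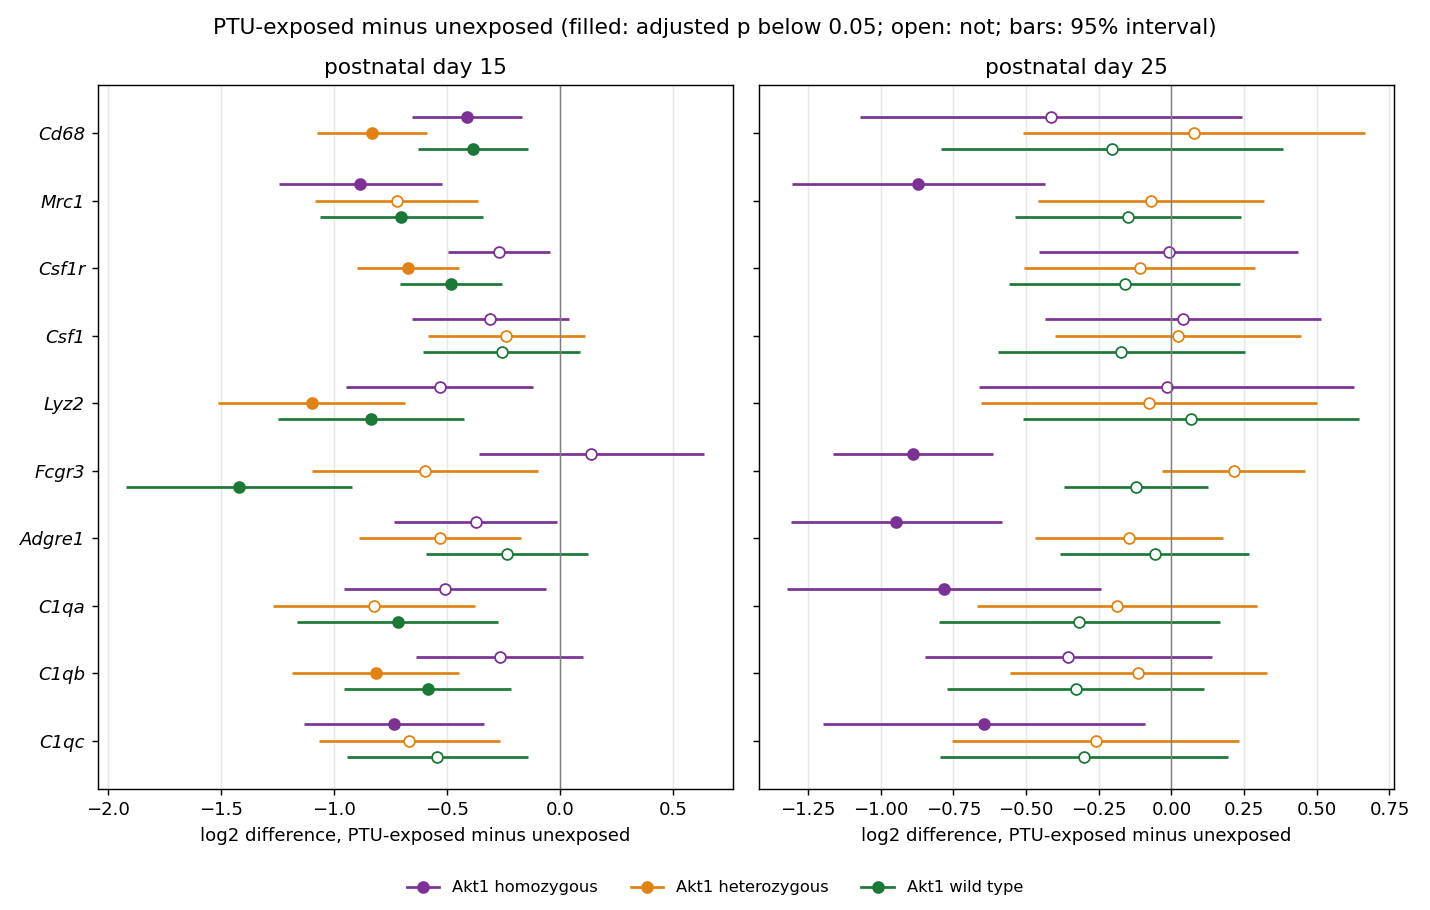
Log2 difference, PTU-exposed minus unexposed (x axis), for each macrophage gene (y axis) at day 15 (left) and day 25 (right) in homozygous (purple), heterozygous (orange) and wild type mice (green), with filled points for a limma adjusted p below 0.05 and 95% intervals of the fit as bars. At day 15 all points but 1 (Fcgr3 in homozygous mice) lie left of 0, and at day 25 every filled point belongs to homozygous mice.

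The fall at day 15 was present in both array sets. Within the first set the mean difference of exposed minus unexposed arrays, averaged over genotypes, was negative for 10 of 10 genes, from -0.89 to -0.32 with a median of -0.55. Within the second set, over heterozygous and homozygous mice only, it was negative for 10 of 10 genes, from -0.82 to -0.03 with a median of -0.51. That set compares 1 exposed with 2 unexposed heterozygous arrays, and 2 exposed with 1 unexposed homozygous array. The first set holds 2 exposed and 1 unexposed heterozygous and 1 exposed and 2 unexposed homozygous arrays. The 10 genes vary together, so their shared sign is not 10 separate results. With the first set fitted alone 7 genes passed, and with the set as a block 9 passed.

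Other lists of genes of the same cells moved the same way in part, when 8.09% of all genes were lower and 3.88% higher. The lists share genes, such as Tyrobp and Fcer1g, and some hold members of the 10. Their counts, at either age, are thus not separate results. Of 21 other macrophage genes tested, 8 were lower, none higher, and 13 missed the threshold, with a median of -0.12. Among the lower ones were the pore-forming gene Mpeg1 (-0.85 ± 0.12), the folate receptor Folr2 (-0.39 ± 0.05), the engulfment kinase Mertk (-0.46 ± 0.06) and the haemoglobin scavenger receptor Cd163 (-0.30 ± 0.05), with adjusted p of at most 0.000653. Of 10 genes of CSF1 receptor ligands and signalling 4 were lower and 6 did not pass, including, beside Csf1r, the phosphatase Inpp5d (-0.34 ± 0.08) and the adaptor Tyrobp (-0.30 ± 0.07). Of 4 Fc receptor genes 3 were lower, Fcer1g, the shared signalling chain (-0.66 ± 0.08), Fcgr3 and the inhibitory Fcgr2b (-0.23 ± 0.07, adjusted p = 0.0476). Of 16 lysosome genes 6 were lower and 10 did not pass, led by the protease Lgmn (-0.64 ± 0.07), and this list holds Cd68 and Lyz2. Of 13 pan-leukocyte genes 6 were lower, among them the oxidase subunit Cybb (-0.48 ± 0.07) and Laptm5 (-0.50 ± 0.08).

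Of 12 genes of the classical complement list 3 were lower, and these were the 3 C1q chains, 1 was higher (the lectin pathway protease Masp1, 0.36 ± 0.09, adjusted p = 0.0132) and 8 did not pass, among them the proteases that join C1q, C1ra (0.04 ± 0.09) and C1s1 (0.08 ± 0.07), both chosen after their values were seen. Markers of other blood cells gave few calls, when 8.09% of all genes were lower and 3.88% higher. These lists are too small for their counts to set them apart from all genes. None of 7 T cell, 4 B cell, 5 neutrophil and 2 red cell genes passed, while 1 of 2 mast cell genes was lower (Hdc, -0.51 ± 0.09) and 1 of 6 dendritic cell genes was lower (Flt3, -0.64 ± 0.08) and 1 higher (Zbtb46, 0.40 ± 0.07). None of 8 endothelial, 6 peritubular myoid, 4 epididymis and 3 fat genes passed. Of 7 Sertoli cell markers 1 was lower, the tight junction gene Cldn11 (-0.26 ± 0.07, adjusted p = 0.0222), 1 was higher, the transcription factor Gata4 (0.30 ± 0.08, adjusted p = 0.0266), and 5 did not pass.

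Germ cell and Leydig cell genes moved at the same time. Of 8 pachytene spermatocyte markers 4 were lower and 4 did not pass with PTU at day 15 when genotypes were averaged, and the genotypes differed in direction. In wild type mice all 8 were lower, and their mean per array was 7.19 to 8.62 in exposed testes, against 9.88 to 10.4 in unexposed ones. In heterozygous mice none of the 8 passed (median -1.01). In homozygous mice none passed either, but the median was 1.14, with means of 6.76 to 8.26 in exposed testes, against 5.98 to 6.99 in unexposed ones. The mean of the 10 macrophage genes was lower with PTU in both: 7.47 to 7.77 in exposed wild type arrays, against 8.13 to 8.43 in unexposed ones, and 7.17 to 7.61 in exposed homozygous arrays, against 7.72 to 7.86 in unexposed ones. Of 6 Leydig cell markers 1 was lower, Hsd3b6, an adult-type steroid enzyme (-2.84 ± 0.37), 1 was higher, Hsd17b3 (1.73 ± 0.17), and 4 did not pass. The part of these cell types in the fall of the macrophage genes was not tested.

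Fcgr3, a low-affinity receptor for IgG that signals through Fcer1g, stood apart from the other 9 genes at day 15. It was 7.61, 6.83 and 6.92 in exposed wild type testes, against 8.59, 8.78 and 8.24 in unexposed ones, a difference of -1.42 ± 0.24 and the largest of the 10 in that genotype. In homozygous mice it read 7.66, 6.71 and 7.01 with PTU, against 6.92, 6.95 and 7.09 without it, a difference of 0.14 ± 0.24 (adjusted p = 0.761), so the unexposed homozygous arrays lay inside the exposed range. Heterozygous mice lay between, with 7.24, 6.73 and 7.44 in exposed and 7.90, 7.59 and 7.72 in unexposed testes (-0.60 ± 0.24, adjusted p = 0.273). The difference between the PTU effects of homozygous and wild type mice was 1.56 ± 0.33 (adjusted p = 0.00515). It passed under all 22 alternatives run, with values from 1.29 to 2.15. Fcgr3 was the 1 macrophage gene to pass that test, where 8.23% of all genes tested had a higher and 8.13% a lower PTU effect in homozygous mice. For the other 9 the estimates ran from -0.19 to 0.32.

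Across the 18 arrays of day 15 Fcgr3 followed spermatocyte genes more closely than macrophage genes. Its Pearson r with the mean of the 8 pachytene markers was 0.907 (Spearman rho 0.849), and 0.861 without the 2 arrays farthest from the median of that mean. Leaving out the 3 unexposed wild type arrays gave 0.798. Its r with the mean of the 9 other macrophage genes was 0.681, and within groups 0.314. For the other 9 genes, r with the mean of their fellow members ran from 0.700 (Csf1) to 0.939 (Lyz2), and r with the pachytene mean from 0.283 (Csf1) to 0.645 (C1qb). The genes most like Fcgr3 over these arrays were Spcs1 (r = 0.964), Nkapl (0.962) and Fbxo36 (0.962), and none of the other 9 was among its 5 nearest, whereas Lyz2 had Csf1r (0.944) as its nearest gene. Of the coding genes on either side of Fcgr3 on chromosome 1, the cilium gene Cfap126 had an r of 0.882 with Fcgr3. Fcgr4, on the other side and not past the filter, had -0.312. Fcer1g, whose product pairs with the Fc receptor, had 0.605, and Fcgr2b had 0.348. These values describe arrays that share groups, the 2 array sets and tissue composition.

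**Figure D3:**
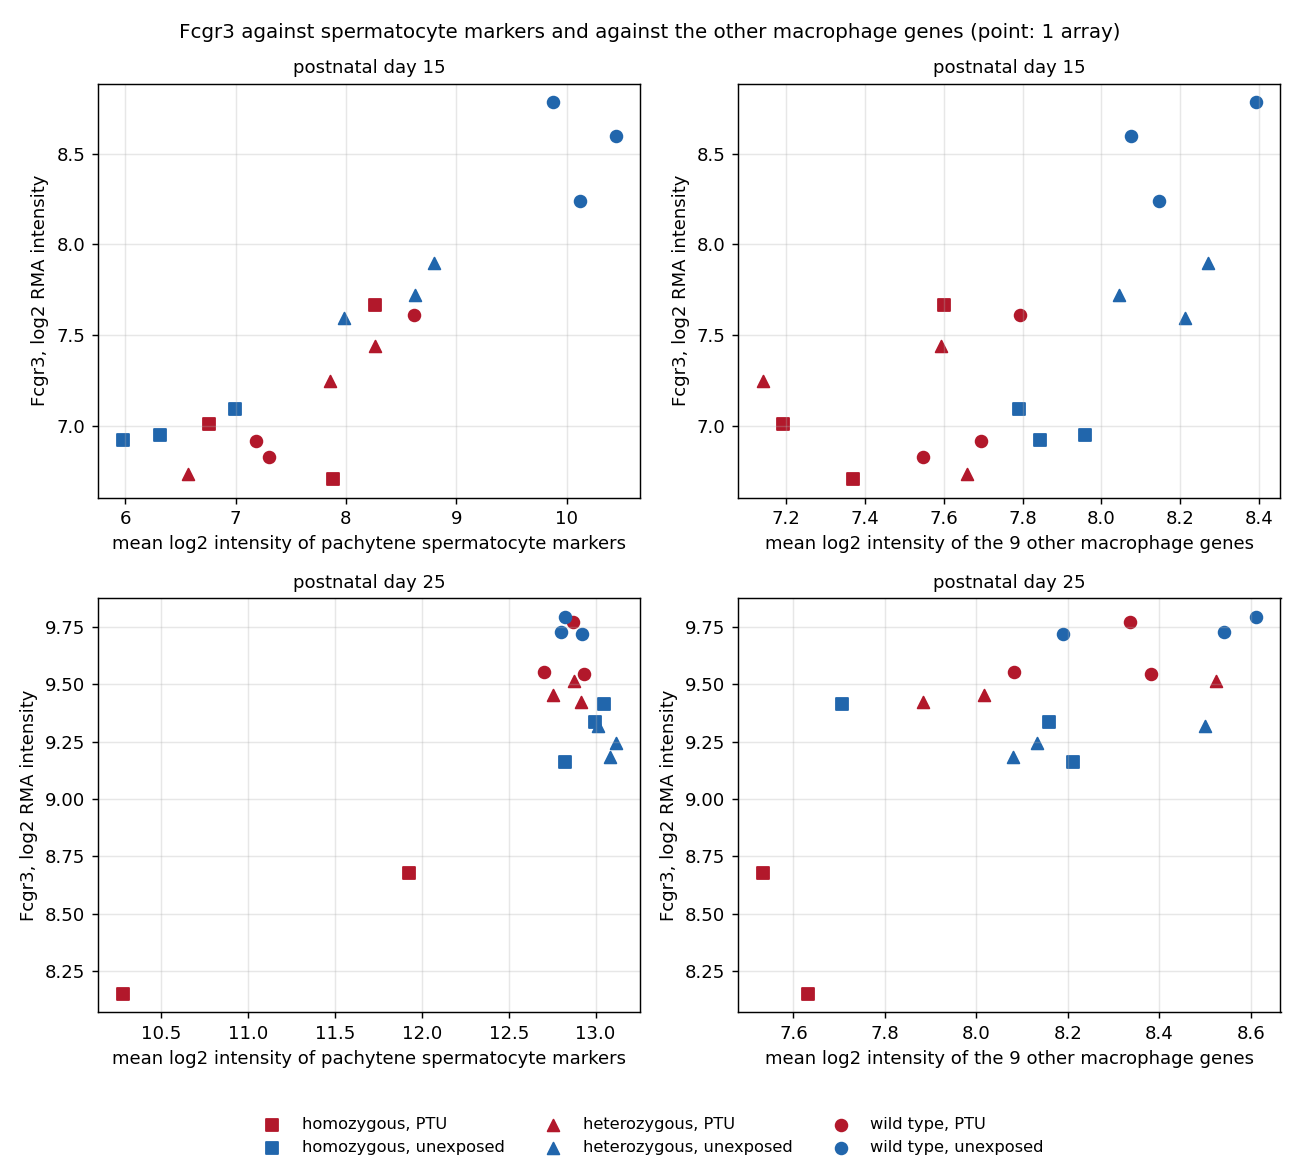
Log2 intensity of Fcgr3 (y axis) against the mean log2 intensity of 8 pachytene spermatocyte markers (left) and of the 9 other macrophage genes (right), at day 15 (top) and day 25 (bottom), 1 point per array (squares homozygous, triangles heterozygous, circles wild type; red exposed, blue unexposed). At day 15 (r = 0.907) Fcgr3 is higher where the spermatocyte mean is higher, and at day 25 the 2 exposed homozygous arrays lie apart from the other 15.

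Genotype without PTU also separated the groups at day 15. In unexposed testes 4 of the 10 genes were lower in homozygous than in wild type mice, Fcgr3, C1qa, C1qb and Csf1r, where 14.2% of all genes were lower. Fcgr3 differed by -1.55 ± 0.24 (adjusted p = 0.000117). C1qb read 7.19, 7.79 and 7.62 in homozygous testes, against 8.04, 8.24 and 8.13 in wild type ones, with no overlap and a difference of -0.61 ± 0.18 (adjusted p = 0.0154). C1qa differed by -0.61 ± 0.21 (adjusted p = 0.0385) and Csf1r by -0.30 ± 0.11 (adjusted p = 0.0399). Cd68, at -0.04 ± 0.12, had the smallest difference of the 10. For 7 genes every homozygous array lay below every wild type array, as for 20.7% of all genes. The count was 1 without unexposed wild type array 2 or unexposed homozygous array 1, 2 without unexposed wild type array 3, and 1 without the arrays with Spink8 above 7, where Fcgr3 remained (highest adjusted p over its 16 alternatives 0.00395). All 8 pachytene markers were lower in the same comparison, with means of 5.98 to 6.99 in homozygous arrays, against 9.88 to 10.4 in wild type arrays, and their part in the result was not tested.

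Among PTU-exposed mice at day 15 no macrophage gene passed between homozygous and wild type testes by limma, nor did any of the 16710 genes (percent lower 0), while 2 of the 10 (Mrc1 and C1qc, both lower) and 4266 of all genes had an unadjusted p under 0.05. The Mrc1 difference was -0.52 ± 0.17 (95% interval -0.88 to -0.16) and that of C1qc -0.55 ± 0.19 (-0.95 to -0.15). For 2 genes, C1qb and C1qc, every homozygous array lay below every wild type array, as for 13.4% of all genes. Without exposed homozygous array 1 the test called 3 genes. Averaged over exposure, 5 genes were lower in homozygous mice (Mrc1, Fcgr3 and the 3 C1q chains), where 14.8% of all genes were lower, and the count was 2 without exposed wild type array 1 and 3 without unexposed wild type array 2 or exposed homozygous array 3. With the array set as a block it was 2, and within the first set 0. Heterozygous mice differed from wild type in none of the 10 genes by limma, averaged over exposure (0.874% of all genes were lower), with 3 at an unadjusted p under 0.05: Mrc1, Fcgr3 and C1qa, the last at -0.37 ± 0.15. The PTU effect did not differ between heterozygous and wild type mice past the test for any of the 10, with 2 at an unadjusted p under 0.05 (Cd68 and Fcgr3) and 0.00598% of all genes having a lower effect.

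**Figure D4:**
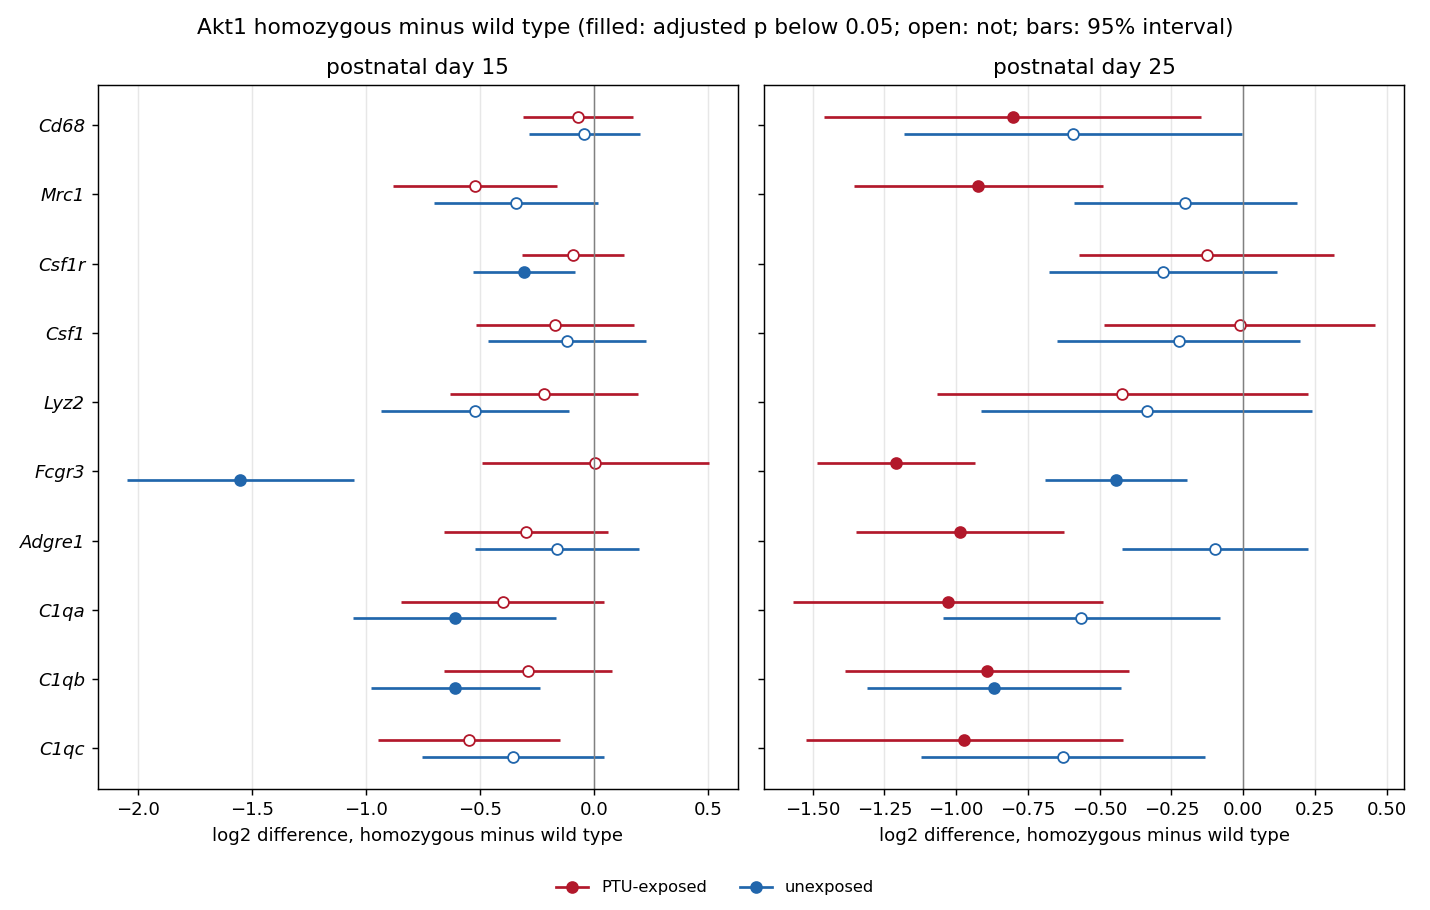
Log2 difference, Akt1 homozygous minus wild type (x axis), for each macrophage gene (y axis) at day 15 (left) and day 25 (right), among exposed (red) and unexposed mice (blue), with filled points for a limma adjusted p below 0.05 and 95% intervals of the fit as bars. Fcgr3 in unexposed mice at day 15 is the farthest point from 0, and at day 25 filled points outnumber open ones in exposed mice.

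Ordering the 6 group means at day 15 put unexposed wild type mice highest for 5 genes and unexposed heterozygous mice highest for the other 5. Exposed homozygous mice were lowest for 6 genes, exposed heterozygous mice for 3, and unexposed homozygous mice for 1, Fcgr3. Neighbours in these orders overlapped in 42 cases and were apart in 8: 2 for Fcgr3, 2 for Lyz2 and 1 each for Mrc1, Csf1r, Cd68 and C1qb. The replicate SD of a gene had a median over genes of 0.13 in unexposed homozygous mice and 0.35 in exposed heterozygous mice. The mean over all 10 genes was 7.15 to 7.77 in the 9 exposed arrays and 7.72 to 8.43 in the 9 unexposed arrays.

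The 10 genes varied together to different degrees. Over the 45 pairs the median r across the 18 arrays was 0.797, with a range of 0.365 to 0.944, and with group means removed it was 0.544. The genes outside the 10 whose pattern was most like their mean were Actn3 (r = 0.963), Hsd3b6 (0.953), Anxa9 (0.953), Cbr2 (0.951) and Slc9a2 (0.945). The median r within groups at day 25 was 0.586 over the 17 arrays, and there the nearest genes were F13a1 (0.958), Lgals3bp (0.944), Pon3 (0.943), Ms4a7 (0.926) and Olfml3 (0.915).

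**Figure D5:**
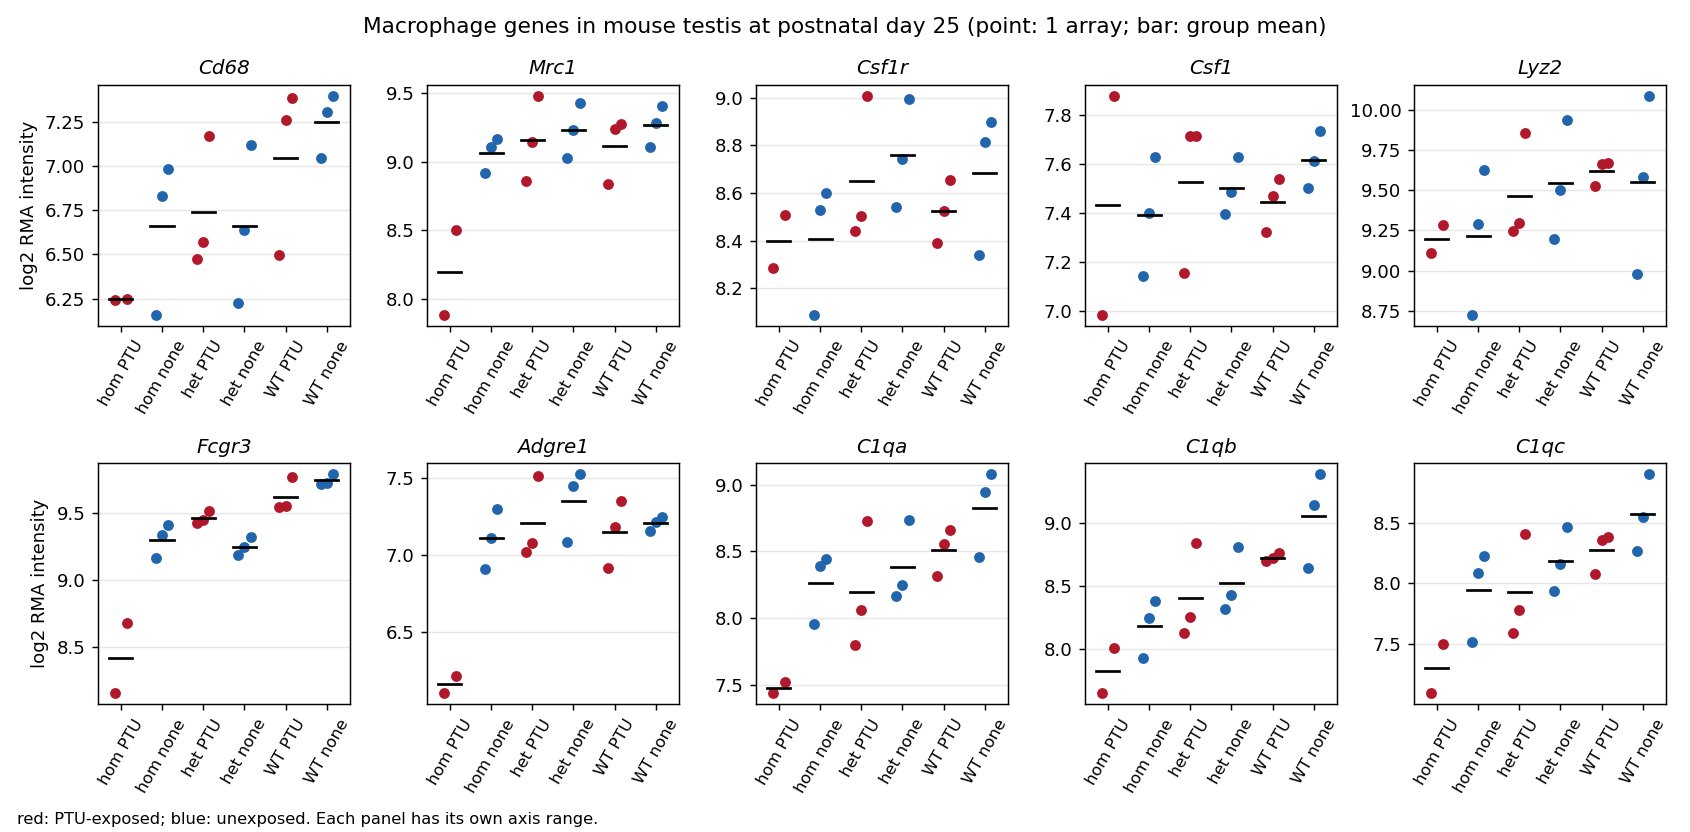
Log2 RMA intensity (y axis, own range in each panel) of the 10 macrophage genes at day 25 in the 6 groups (x axis, names as at day 15), 1 point per array, red for exposed and blue for unexposed, with bars for group means. Exposed homozygous mice have 2 arrays, and their mean is the lowest of the 6 for 9 genes, while exposed and unexposed wild type arrays overlap in every panel.

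At day 25 no PTU effect on these genes passed in wild type or in heterozygous mice. In wild type mice limma called 0 of the 10 genes and 0 of all 16305 tested (percent lower 0), with 0 of the 10 and 978 of all genes at an unadjusted p under 0.05. The estimates ran from -0.33 for C1qb (95% interval -0.77 to 0.11) to 0.07 for Lyz2 (-0.51 to 0.65). In heterozygous mice 0 of the 10 passed, where 7.2% of all genes were lower, and 0 had an unadjusted p under 0.05. Mrc1 read 9.27, 9.24 and 8.84 in exposed wild type testes, against 9.28, 9.11 and 9.41 in unexposed ones, and Lyz2 read 9.66, 9.52 and 9.67, against 10.08, 8.98 and 9.58. In wild type mice exposed and unexposed arrays overlapped for all 10 genes (8.5% of all genes had every exposed array lower). In heterozygous mice they overlapped for 9 (14.4% of all genes had every exposed array lower). Fcgr3 was higher in every exposed heterozygous array, as were 26.5% of all genes, at 0.21 ± 0.12 (adjusted p = 0.214).

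In homozygous mice at day 25, 5 of the 10 genes were lower with PTU, at a time when 32.8% of all genes were lower and the 2 exposed arrays stood apart. Adgre1 was 6.22 and 6.10 in exposed testes, against 7.30, 7.11 and 6.91 in unexposed ones, a difference of -0.95 ± 0.17 (adjusted p = 0.000150). Fcgr3 was 8.68 and 8.15, against 9.16, 9.34 and 9.41 (-0.89 ± 0.13, adjusted p = 2.21e-05). Mrc1 was 8.51 and 7.88, against 9.11, 9.16 and 8.92 (-0.87 ± 0.20, adjusted p = 0.00138). None of these overlapped, and C1qa (-0.78 ± 0.25, adjusted p = 0.0122) and C1qc (-0.64 ± 0.26, adjusted p = 0.0369) were lower as well. Csf1r (-0.01 ± 0.21), Csf1 (0.04 ± 0.22), Lyz2 (-0.02 ± 0.30), Cd68 (-0.41 ± 0.31) and C1qb (-0.35 ± 0.23) did not pass. Every exposed array lay below every unexposed array for 5 genes, as for 35.6% of all genes. With array weights, which give arrays that deviate less influence, 2 of the 10 passed, Fcgr3 and Adgre1.

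The 3 genes with the largest falls also differed in the test between genotypes, but with array weights Fcgr3 alone did. The PTU effect in homozygous minus that in wild type mice was -0.89 ± 0.23 for Adgre1 (adjusted p = 0.00376), -0.77 ± 0.17 for Fcgr3 (adjusted p = 0.00159) and -0.72 ± 0.27 for Mrc1 (adjusted p = 0.0333), where 26.3% of all genes had a lower effect. The Fcgr3 call held under all 19 alternatives run (highest adjusted p 0.0105), the Adgre1 call was lost with array weights (adjusted p = 0.0548), and the Mrc1 call was lost under 9 of the 19 (highest adjusted p 0.232). For Fcgr3 the sign at day 25 was opposite to that at day 15, and the ages were not compared by a test because they were measured on different arrays. Averaged over genotypes 5 genes were lower (27.6% of all genes), and with array weights 1 was. With the 2 exposed homozygous arrays left out, 0 of the 10 passed, and the same count came from leaving out all arrays with Spink8 above 7. None of the 10 differed in PTU effect between heterozygous and wild type mice by limma (percent lower 0; 0 of the 10 and 2982 of all genes at an unadjusted p under 0.05).

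Other cell types shifted along with these genes in the exposed homozygous arrays, where 32.8% of all genes were lower and 38.4% higher. With PTU in homozygous mice, 8 of 8 pachytene markers were lower (median -1.73), 2 of 5 Leydig markers lower (median -0.63), 6 of 8 Sertoli markers higher (median 0.71), 4 of 6 peritubular myoid markers higher (median 1.26), 2 of 4 epididymis markers higher (median 2.03) and 2 of 3 fat markers higher (median 4.17). The Leydig count and the epididymis count, in those directions, lie near the shares of all genes. Not every gene of these lists went the way of its list. Averaged over genotypes, the myoid gene Actg2 (-1.04 ± 0.14) and the epididymis gene Rnase10 (-0.61 ± 0.19) were lower with PTU. The mean of the 4 epididymis markers was 7.84 and 8.32 in exposed homozygous arrays and 5.72 to 6.07 in unexposed ones. Over all 17 arrays Fcgr3 had an r of 0.812 with the pachytene mean, which rests on the 2 exposed homozygous arrays: over the other 15 it was -0.515. For Mrc1 and Adgre1 the corresponding values were 0.862 and 0.824 over all arrays and 0.0246 and 0.241 over the other 15. The part of these cell types in the differences was not tested.

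The other immune lists were mixed at day 25, when 36.3% of all genes were higher and 27.6% lower with PTU averaged over genotypes. With PTU averaged over genotypes, 5 of 22 other macrophage genes were higher and 5 lower, and 12 missed the threshold. The microglia and macrophage gene Aif1 (-2.24 ± 0.20) and the scavenger receptor Msr1 (-0.50 ± 0.10) were lower, while Mpeg1 (0.47 ± 0.09) and the transcription factor Maf (0.69 ± 0.16) were higher. Of 10 complement genes 3 were higher, C1ra (0.71 ± 0.08), C1s1 (0.67 ± 0.08) and the inhibitor Serping1 (0.75 ± 0.10), and 4 were lower, among them the regulator Cd46 (-1.31 ± 0.18) and, of the members, C1qa and C1qc. C1qa and C1qc were thus lower and the proteases that join them higher. With the 2 exposed homozygous arrays left out, neither of these C1q calls remained. Of 16 lysosome genes 7 were higher and 1 lower, with Lamp2 at 0.78 ± 0.07, whereas Cd68 and Lyz2 did not pass. Of 10 genes of CSF1 receptor ligands and signalling 3 were higher and 1 lower (Inpp5d, -0.40 ± 0.07), and neither Csf1 nor Csf1r passed. The shares higher of the macrophage, complement and CSF1 lists lay near or below that of all genes, so these counts do not set the lists apart.

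Markers of other blood cells were mostly lower among those that passed, when 27.6% of all genes were lower and 36.3% higher. The lists are small, so these counts do not set them apart from all genes. The B cell and neutrophil lists were dim, with group means of at most 5.78 and 5.49, against a filter at 4.76. Of 13 pan-leukocyte genes 3 were lower, among them Laptm5 (-0.19 ± 0.05) and Cd37 (-0.26 ± 0.08), and 1 was higher, Cd52 (2.96 ± 0.51). The epididymal gene Spink8 had almost the same difference as Cd52 (2.96 ± 0.51), and which cells gave the Cd52 signal was not tested. Of 6 Fc receptor genes Fcgr3 and Fcer1g (-0.36 ± 0.10) were lower and Fcgrt, the neonatal receptor for IgG, was higher (0.41 ± 0.10). Lower were 2 of 4 T cell genes (Cd3d, -0.21 ± 0.07, and Cd8a, -0.21 ± 0.08), 3 of 5 B cell genes (Cd79b, Cd22 and Cd79a, from -0.22 to -0.20), 2 of 5 mast cell genes (Hdc, -0.42 ± 0.09, and Tpsb2, -0.28 ± 0.07) and both red cell genes (Alas2, -0.65 ± 0.10, and Slc4a1, -0.21 ± 0.07), with none higher. Of 6 neutrophil genes 3 were lower, among them the peroxidase Mpo (-0.45 ± 0.09), and 1 higher (Ltf, 0.67 ± 0.15), and of 4 dendritic cell genes 2 were lower (Flt3 and Ccr7) and 1 higher (Zbtb46, 0.39 ± 0.08). These averages hold the 2 exposed homozygous arrays, and the part of these cells in the differences was not tested.

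C1qb and Fcgr3 differed with genotype at day 25 also without PTU. C1qb was 8.38, 8.24 and 7.93 in unexposed homozygous testes, against 9.38, 8.64 and 9.14 in unexposed wild type ones, a difference of -0.87 ± 0.21 (adjusted p = 0.0202). The receptor Fcgr3 was 9.16, 9.34 and 9.41, against 9.79, 9.72 and 9.73 (-0.44 ± 0.12, adjusted p = 0.0261). By the probe sets used, neither gene overlapped between the groups, and for 5 of the 10 genes every homozygous array was lower (21.3% of all genes). They were the 2 genes lower of the 10, where 7.32% of all genes were lower, and all 10 estimates were negative, with a median of -0.39 against -0.03 over all genes. C1qa (-0.56 ± 0.23, adjusted p = 0.110) and C1qc (-0.63 ± 0.23, adjusted p = 0.0859) did not pass. The count was 0 without unexposed wild type array 1 or 3 or unexposed homozygous array 3, and 1 without unexposed wild type array 2 or unexposed homozygous array 1. With array weights it was 5, with Cd68, C1qa and C1qc added. It was 0 with the beta-actin 3′ minus 5′ difference, a sign of RNA degradation, as a covariate. That difference was 0.953 to 1.31 in unexposed homozygous arrays, against 0.546 to 0.673 in unexposed wild type ones. These ranges do not overlap, so the fit cannot tell the beta-actin difference apart from genotype. Its part in the result was not tested.

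Among exposed mice at day 25, 7 genes were lower in homozygous than in wild type testes (28.4% of all genes were lower): Fcgr3 (-1.21 ± 0.13), C1qa (-1.03 ± 0.25), Adgre1 (-0.99 ± 0.17), C1qc (-0.97 ± 0.26), Mrc1 (-0.92 ± 0.20), C1qb (-0.89 ± 0.23) and Cd68 (-0.80 ± 0.31), with adjusted p from 5.95e-06 to 0.0344. These calls rest on the 2 exposed homozygous arrays that stood apart in Spink8 and in spermatocyte markers. With the beta-actin covariate 1 passed, and with array weights 3 did (Fcgr3, Adgre1 and Mrc1). The beta-actin difference was 1.08 and 1.44 in exposed homozygous arrays, against 0.560 to 0.666 in exposed wild type ones, again without overlap. C1qb read 7.65 and 8.01 in exposed homozygous testes, against 8.76, 8.70 and 8.72 in exposed wild type ones. For 8 genes every homozygous array was below every wild type array, as for 36% of all genes. Averaged over exposure the count was 7, the same genes, where 21.8% of all genes were lower, and with the beta-actin covariate it was 0. That average includes the same exposed homozygous arrays, and among unexposed mice alone 2 of the 10 were lower. Heterozygous mice differed from wild type, averaged over exposure, in Fcgr3 alone (-0.33 ± 0.08, adjusted p = 0.0143), where 12.2% of all genes were lower. Its values were 9.42, 9.45 and 9.52 in exposed and 9.32, 9.19 and 9.24 in unexposed heterozygous mice, and 9.55, 9.77 and 9.55 in exposed and 9.79, 9.72 and 9.73 in unexposed wild type mice. So at day 25 Fcgr3 was lower in heterozygous than in wild type testes and did not overlap within either exposure. That call held under all 22 alternatives run, from -0.35 to -0.28. The count of the 10 genes was 2 without unexposed wild type array 2 or unexposed heterozygous array 1, and 3 without exposed heterozygous array 3.

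Where several probe sets read 1 gene at day 25, they did not always behave alike. C1qb has 3, and between homozygous and wild type mice averaged over exposure they gave -0.88 ± 0.16, -0.37 ± 0.14 and -0.61 ± 0.17, all 3 past an adjusted p of 0.05 over every probe set. Among unexposed mice, however, 1 C1qb probe set not used above overlapped, with 7.88 to 8.01 in homozygous and 7.84 to 8.70 in wild type arrays. Csf1r has 3: the one used here gave -0.20 ± 0.14, another -0.21 ± 0.10, and the other -0.45 ± 0.09 (adjusted p under 0.05 in homozygous against wild type mice, in unexposed mice, in exposed mice and averaged). Csf1 has 4. With PTU in homozygous mice the one used gave 0.04 ± 0.22 while 2 others gave -0.27 ± 0.10 and -0.47 ± 0.14, both past the threshold. The statements above on Csf1, Csf1r and C1qb at day 25 therefore hold for the brightest probe set.

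Ordering the group means at day 25, unexposed wild type mice were highest for 7 genes and exposed homozygous mice lowest for 9, with Csf1 lowest in unexposed homozygous mice. Neighbours overlapped in 43 cases and were apart in 7, of which 3 were for Fcgr3. Each C1q chain had another C1q chain as its nearest gene: C1qa and C1qc had an r of 0.962 over the 17 arrays, and C1qb had 0.946 with C1qc. Without the exposed homozygous arrays, r of each chain with the mean of the other macrophage genes was 0.943 for C1qa, 0.933 for C1qc and 0.878 for C1qb, against 0.432 for Fcgr3.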

How the data were processed

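Log2 intensities per probe set were deposited by the authors for 18 arrays at day 15 and 17 at day 25. Per the submitters' processing notes they were made with RMA (no version named), so log2 values are already background-corrected and normalized within each array type. Probe sets were named from the platform annotations, and those with 1 symbol were kept (21789 and 34958). The brightest probe set stood for a gene, and a gene was tested where it exceeded the 25th percentile of the table in at least 2 arrays (16710 and 16305). Differences between the 6 group means of an age were fitted with limma 3.58.1 in R 4.3.3 (lmFit, eBayes), and p-values were adjusted by Benjamini and Hochberg over all tested genes, with 0.05 as the threshold. The fit was checked on simulated data. Values after ± in the text are standard errors of the fit. P-values set a difference of group means against the spread between mice within groups, estimated over all 6 groups of an age. With 3 arrays a group, and 2 in 1 group, the precision is limited.

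Members and lists were chosen with earlier results of these data known. The text names every member, Akt1, from each list up to 4 genes with the smallest p for PTU averaged over genotypes, the 5 genes most like the members' mean, and genes beside or most like Fcgr3, which were chosen after its values were seen. Outside that rule, Lyz1 was named as the neighbour of Lyz2, and C1ra and C1s1 at day 15 were chosen after their values were seen. Replicate numbers paired the samples (every correlation of deviations over 0.1) for PTU in heterozygous and for genotype in exposed mice at day 15, and for PTU at day 25 in wild type mice. Alternatives were other filters, every probe set, quantile normalization, the compared groups alone, array weights, a replicate block, leaving out each array, and, chosen after seeing the data, the array set, Spink8 and beta-actin.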

Additional observations from a re-analysis of the deposited data

Results flagged for a closer look

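The effect of PTU differed between homozygous and wild type mice, by limma's interaction term, for 4 gene and age pairs. Of all genes tested, 16.4% passed this test at day 15 and 59.4% at day 25, in either direction. The members, 1 of 10 at day 15 and 3 of 10 at day 25, did not exceed these shares. At day 15 the difference was 1.56 ± 0.33 for Fcgr3 (adjusted p = 0.00515): it was lower with PTU in wild type testes, while in homozygous testes unexposed arrays lay within the exposed range. At day 25 it was -0.72 ± 0.27 for Mrc1 (adjusted p = 0.0333), -0.77 ± 0.17 for Fcgr3 (adjusted p = 0.00159) and -0.89 ± 0.23 for Adgre1 (adjusted p = 0.00376). With array weights Fcgr3 alone passed at day 25. The 3 values at day 25 rest on the 2 exposed homozygous arrays that stood apart in Spink8 and in spermatocyte markers, and cannot be computed without them.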

How the results depend on the processing

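Counts are of the 10 genes past the threshold. At day 15 the count for PTU averaged over genotypes was 7 to 10 under all 27 alternatives, and the Fcgr3 interaction with the homozygous genotype passed under all 22. With only the compared groups in the fit, PTU called 1 gene in heterozygous and 0 in homozygous mice, and genotype called 7 in unexposed mice. Array weights gave 8 for PTU in heterozygous mice and 1 for genotype in exposed mice. Of the alternatives chosen after seeing the data, the first array set alone gave 0 for PTU in heterozygous mice, 0 in homozygous mice and 0 for homozygous against wild type averaged over exposure, where the set as a block gave 2. Without the arrays with Spink8 above 7, PTU gave 1 in wild type and 0 in homozygous mice, and homozygous against wild type 1 in unexposed mice and 1 averaged. At day 25 heterozygous against wild type gave 2 with a filter at the 50th percentile, 2 with only the compared groups and 2 without the exposed homozygous arrays. Array weights at day 25 gave 2 for PTU in homozygous mice, 1 averaged, 5 and 3 for homozygous against wild type in unexposed and exposed mice, and 1 for the interaction. Without the exposed homozygous arrays, and without those with Spink8 above 7, PTU averaged gave 0, and Fcgr3 changed sign, to 0.0459 (adjusted p = 0.639) and 0.0662 (adjusted p = 0.643). With beta-actin as a covariate, homozygous against wild type gave 0 in unexposed mice, 1 in exposed mice and 0 averaged. This covariate did not overlap between these genotypes within either exposure, so the fit cannot tell it apart from genotype. The cause of these changes was not tested.

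Leaving out 1 array at a time at day 15 gave counts for PTU of 0 to 5 in heterozygous mice, 2 to 6 in the wild type and 0 to 4 in homozygous animals, and for homozygous against wild type 1 to 3 in unexposed mice, 0 to 3 in exposed mice and 2 to 6 averaged. At day 25 it gave 0 to 2 for homozygous against wild type in unexposed mice and 1 to 3 for heterozygous against wild type. With the replicate number as a block, where the numbers paired the samples, the counts were 4, 0 and 0, the counts without it. Elsewhere the block moved no count by over 1.5 times, with 8 for PTU in wild type mice at day 15 and 6 for homozygous against wild type averaged.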
